A study of Mus musculus with 45 samples.

Results

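The 4C-seq regions outside the bait chromosome were the stretches of chromosomes 1 to 19 and X, without chromosome 5, that were called as ligated to the promoter of the lncRNA 5430416N02Rik in mouse embryonic stem cells (ESCs). They were taken from the region lists of both 4C-seq replicates by chromosome alone, which gave 283 of the 339 regions of replicate 1 and 285 of the 341 regions of replicate 2, or 568 of 680 in all. Each list holds only where a region starts and ends, so the number of reads behind a region is unknown, and no control bait was analysed here. The starts and ends were read on the GRCm38 build: 9 of the 568 would run beyond the chromosome end on the older NCBIM37 build.

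The study asked whether this lncRNA locus takes part in contacts between chromosomes and in the growth of ESCs. The cells of the 4C-seq samples are labelled only as ESC. Gene expression came from RNA-seq of D3 ESCs, a line of strain 129 grown without feeder cells in medium with LIF and kept in DMSO for these samples. In the ΔG line the gene body of 5430416N02Rik was replaced by a GFP-IRES-Puro cassette. In the ΔPG line the promoter and the gene body were replaced by PGK-puro. Each line had 3 heterozygous and 3 homozygous ESC samples. The cells were grown from picked clones, and which clone gave which sample is not given in the sources used here, so clone and genotype cannot be told apart. p-values measure only the spread between these samples. Expression is given as rlog, a normalized count on the log2 scale. The targeted lncRNA had an rlog of 5.58, 5.54 and 5.50 in the heterozygous and 2.63, 2.77 and 2.85 in the homozygous ΔG samples. It had 4.62, 4.58 and 4.59 against 2.23, 2.21 and 2.46 in the ΔPG samples. All 8 ESC markers were present in both lines, from a mean rlog of 5.71 for Utf1 to 11.57 for Tdgf1 in the ΔG line. Among markers of other cells, Gata4, Sox17, Pax6 and Col1a1 had means from 2.95 to 3.27, Mesp1 was at 0 in each ΔG sample, and Nes, which marks neural progenitors, had a mean of 7.38.

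In 4C-seq, chromatin is crosslinked, cut and religated, and the fragments joined to a chosen bait are sequenced. Contacts on the bait's own chromosome fall off with distance, whereas contacts with other chromosomes are sparse and are read as broad territories that tend to share the activity state of the bait. Active, gene-rich chromatin and silent, gene-poor chromatin occupy separate compartments of the nucleus, and mouse chromosomes carry their centromere at one end.

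The bait promoter is printed first, and beside it the promoters of the loci to which the results return: Mid1, the gene on chromosome X that the study followed by DNA FISH, Klf4, a pluripotency factor whose start lay in regions of both replicates, and Nanog, a pluripotency factor whose start lay in neither. Each run gives 250 bases before to 50 bases after the start in the direction of the gene, from RefSeq on GRCm38, and the capitals mark CG dinucleotides.
5430416N02Rik: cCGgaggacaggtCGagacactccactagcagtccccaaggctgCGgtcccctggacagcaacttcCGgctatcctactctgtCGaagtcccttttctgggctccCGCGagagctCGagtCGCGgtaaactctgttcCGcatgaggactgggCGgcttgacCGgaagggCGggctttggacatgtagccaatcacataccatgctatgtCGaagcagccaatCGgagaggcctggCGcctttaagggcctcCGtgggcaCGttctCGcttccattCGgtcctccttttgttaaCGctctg
Mid1: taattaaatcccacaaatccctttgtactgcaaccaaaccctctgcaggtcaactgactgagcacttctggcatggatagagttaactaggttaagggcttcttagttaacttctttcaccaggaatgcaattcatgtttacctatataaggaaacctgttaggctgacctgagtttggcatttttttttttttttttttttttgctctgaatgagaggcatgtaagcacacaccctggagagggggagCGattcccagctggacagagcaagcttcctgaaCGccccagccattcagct
Klf4: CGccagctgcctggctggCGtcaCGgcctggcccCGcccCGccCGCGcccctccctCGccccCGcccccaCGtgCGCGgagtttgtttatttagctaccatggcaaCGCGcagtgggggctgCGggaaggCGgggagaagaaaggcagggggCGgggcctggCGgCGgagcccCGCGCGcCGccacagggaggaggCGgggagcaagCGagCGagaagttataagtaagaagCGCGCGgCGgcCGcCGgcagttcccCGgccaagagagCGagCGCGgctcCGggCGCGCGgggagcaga
Nanog: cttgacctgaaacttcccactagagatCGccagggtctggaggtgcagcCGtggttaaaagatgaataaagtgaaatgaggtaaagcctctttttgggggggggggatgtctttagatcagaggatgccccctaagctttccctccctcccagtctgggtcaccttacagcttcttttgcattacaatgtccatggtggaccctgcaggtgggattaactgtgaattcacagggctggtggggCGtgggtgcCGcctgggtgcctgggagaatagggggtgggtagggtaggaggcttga
The bait promoter lies on the minus strand at chr5:100429486-100429785 and holds 22 CG dinucleotides. The Klf4 promoter, on the minus strand at chr4:55532426-55532725, holds 40. The Mid1 promoter, on the plus strand at chrX:169684949-169685248, holds 2, and the Nanog promoter, on the plus strand at chr6:122707239-122707538, holds 4. CG-rich promoters are typical of broadly expressed genes. The HindIII site AAGCTT, which is its own reverse complement and at which the 4C library was cut, is found in the windows of Mid1 and Nanog and not in those of Klf4 and 5430416N02Rik. It is found in 6.65% of the 16217 promoters of protein-coding genes outside chromosome 5.

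The regions were long. Their median length was 2752 kb in replicate 1, from 1370 to 15410 kb, and 2551 kb in replicate 2, from 1345 to 20190 kb. The 56 regions that each replicate had on chromosome 5 were shorter, with medians of 596 and 512 kb. The authors used a narrower window of HindIII sites on the bait chromosome than elsewhere, and the 2 sets of lengths can therefore not be compared as contacts. The regions outside chromosome 5 added up to 965 Mb in replicate 1 and 950 Mb in replicate 2, or 42.9% and 42.2% of the span from the first to the last region on each chromosome, and the sequence shared by both took 27.4%. Every one of the 19 chromosomes held regions of both replicates.

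About 3 in 4 regions had a partner in the other replicate. The replicates covered 42.9% and 42.2% of the span. How many partners and how much shared length such coverage gives by placement alone was not tested. In replicate 1, 210 of 283 regions (74.2%) overlapped a region of replicate 2, and in replicate 2, 216 of 285 (75.8%) overlapped a region of replicate 1. Their overlap formed 258 shared segments with a median length of 1993 kb and a sum of 617 Mb, which is 63.9% of the length called in replicate 1 and 64.9% of that called in replicate 2. The borders agreed less well. None of the 258 overlapping pairs had the same start or the same end, the starts were a median of 1004 kb apart and the ends 973 kb, and 42 starts and 51 ends lay within 250 kb of each other. Regions found in 1 replicate alone were the shorter ones: their medians were 2127 kb (73 regions) and 1990 kb (69 regions), against 3023 and 2814 kb for regions with a partner. Of the regions longer than 5 Mb, 41 of 42 in replicate 1 and 41 of 41 in replicate 2 had a partner. A long region has more room to meet another, and the part of length in this difference was not tested.

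**Figure D1:**
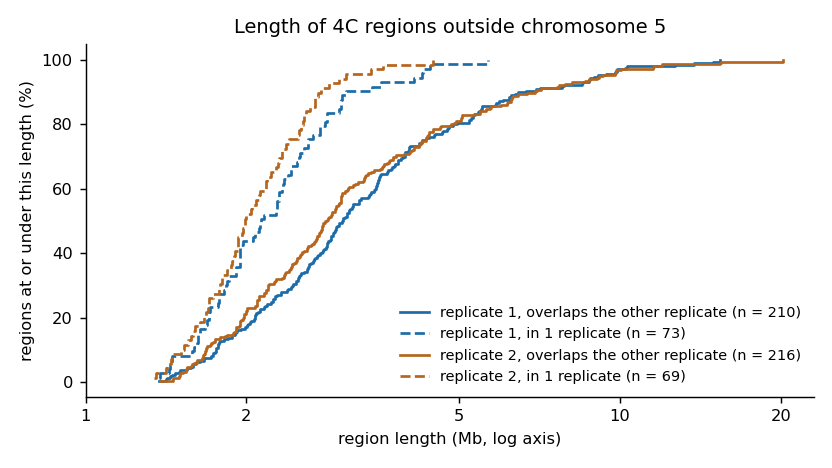
Cumulative share of regions outside chromosome 5 (vertical axis, percent) by length (horizontal axis, Mb, log scale), with 1 line for the regions of each replicate that overlap the other replicate (solid) and 1 for those that do not (dashed). The dashed lines of both replicates lie to the left, with medians near 2 Mb, and end before 6 Mb, while the solid lines reach 15410 and 20190 kb.

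The remaining results set 4 kinds of sequence apart: sequence in regions of both replicates (617 Mb), of replicate 1 only (349 Mb), of replicate 2 only (334 Mb) and of neither (1162 Mb), over a span of 2461 Mb from the first to the last gene or region of each chromosome. Shared segments took 25.1% of this longer span. A gene was counted where its start lay. Genes are not replicates of a contact, so these counts are descriptions, and the values of the single replicates show the spread.

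Shared segments were richer in genes than the rest of the chromosomes. They held 8008 of 20362 protein-coding genes (39.3%), or 13.0 per Mb, against 5.42 per Mb in sequence of neither replicate, a ratio of 2.39. Sequence of replicate 1 only and of replicate 2 only lay between them, at 8.74 and 9.01 per Mb, close to the 8.28 per Mb of the whole span. Long noncoding RNA genes were ordered likewise, with 7.18 per Mb in shared segments, 5.41 and 5.45 in single-replicate sequence and 3.24 in neither. Pseudogenes were not: their density was 3.72, 3.59, 3.85 and 3.93 per Mb in the same order. Among whole regions, those with a partner held 12.3 and 12.1 protein-coding genes per Mb in replicates 1 and 2, and those without one held 7.49 and 8.56. When all regions of a single replicate were set against the rest, the ratio was 1.84 for replicate 1 and 1.87 for replicate 2.

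**Figure D2:**
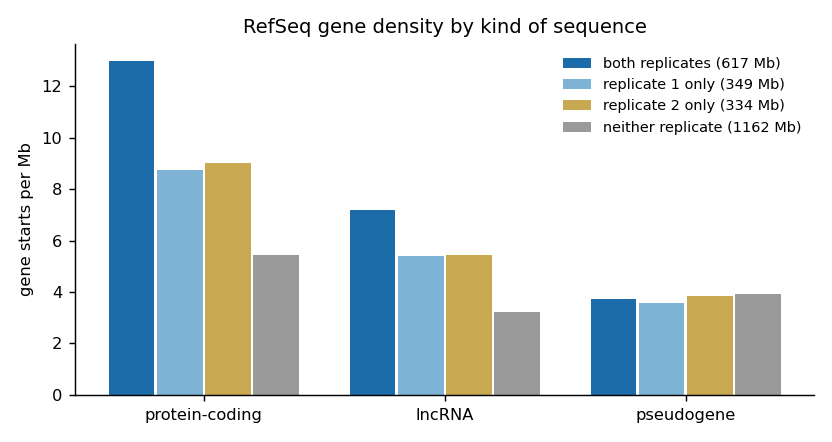
RefSeq gene starts per Mb (vertical axis) for protein-coding genes, lncRNA genes and pseudogenes in the 4 kinds of sequence, with the length of each kind in the key. Protein-coding density falls from 13.0 per Mb in both replicates to 5.42 in neither, while the 4 pseudogene bars stay between 3.59 and 3.93.

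The difference was seen on every chromosome. The density in shared segments was above that in sequence of neither replicate on 19 of 19 chromosomes, with a median ratio of 2.37. The ratio was lowest on chromosome 7 (15.3 against 12.9 per Mb) and highest on chromosome 15 (18.98 against 2.58 per Mb). The shared share of a chromosome's span went from 14.6% on chromosome 16 and 15.7% on chromosome 3 to 36.9% on chromosome 17 and 37.5% on chromosome 7. Since the authors set each window against its own chromosome, a higher share on 1 chromosome than on another is not a measure of more contacts with it. Chromosome X, which carries Mid1, had 18 shared segments over 18.7% of its span, with regions of replicate 1 over 39.9% and of replicate 2 over 39.1%.

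Coverage grew with distance from the centromere. When each chromosome was divided into 5 equal parts from its centromere end, shared segments took 9.40% of the part next to the centromere, then 22.2%, 27.9% and 31.5%, and 34.3% of the last part. Each replicate showed the same order, from 21.6% to 50.2% in replicate 1 and from 19.3% to 49.6% in replicate 2. The density of protein-coding genes moved less, from 7.49 per Mb next to the centromere to 9.97 in the last part. Of 327 stretches outside both replicates, 27 were longer than 10 Mb. Named after their lengths were seen, the 3 longest were chr8:43140-51382916, with 51.3 Mb and 330 protein-coding genes, chr11:5648901-31978214 with 26.3 Mb, and chr1:93967986-118049876 with 24.1 Mb and 43 protein-coding genes. The first of these begins at the first gene listed on chromosome 8, towards the centromere end. Its length, and the 5 parts of that chromosome, rest on the listed position of that gene, which was not checked. Unsequenced stretches were not taken out of these lengths or of the 5 parts.

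**Figure D3:**
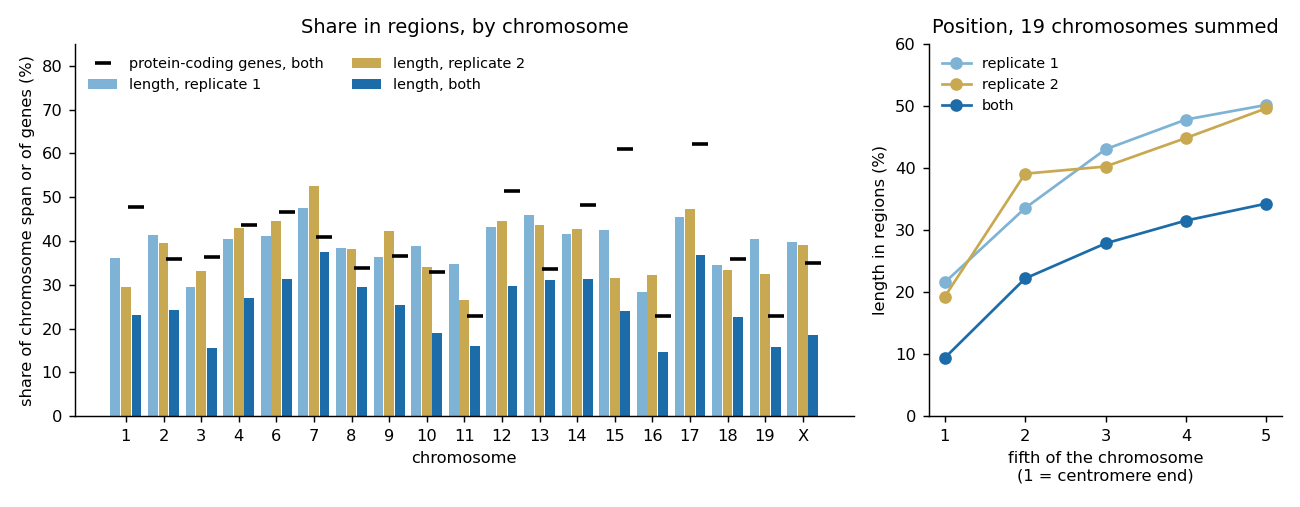
Left, share of each chromosome's span (percent) in regions of replicate 1, of replicate 2 and of both (bars), with the share of its protein-coding genes in shared segments as a black dash. Right, share of length in regions (percent) in 5 equal parts of the chromosome from the centromere end, summed over 19 chromosomes. On every chromosome the dash lies above the bar for both replicates, and the shared share rises from 9.40% next to the centromere to 34.3% in the last part.

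The 5 longest shared segments lay on 5 chromosomes. The longest, chr4:128013208-142975706, was 14962 kb long and held 260 protein-coding genes. Its most abundant gene by rlog was Rpl11, a ribosomal protein gene, with a mean of 11.19 in heterozygous ΔG samples. The next, chr8:83492710-97251332, held 159 protein-coding genes, among them Calr, a calcium-binding chaperone of the endoplasmic reticulum (11.25). The segment chr17:23170186-33001290 held 259, led by Rps2 (12.79). The segment chr12:78189594-87823513 held 130 and was led by Esrrb, a nuclear receptor of naive pluripotency (11.00). The last, chr7:136022010-145311210, held 168, 19 of them olfactory or vomeronasal receptors, and also Fgf4, a growth factor of ESCs (9.78).

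Shared segments differed widely in gene content. Among the 205 of at least 1 Mb, the median was 9.42 protein-coding genes per Mb and the highest 57.1, at chr17:33459726-35141253 with Rps18 and Rps28. The next 4 lay at chr7:45010881-46991908 (43.4 per Mb, with Rpl13a and Ldha, the lactate dehydrogenase gene), chr19:5339960-7693943 (42.1, with Cfl1, which severs actin), chr15:75076930-77090682 (40.2, with Rpl8) and chr7:27108795-29058520 (37.4, with Rps16). At the other end, chr8:51688414-53274334 held no protein-coding gene. The segments chr14:22437995-24111373, chr14:116417955-118047953 and chr8:75724696-77323047 held the start of 1 each: Kcnma1, a potassium channel, with a mean rlog of 0.38, Gpc6, a glypican (4.93), and Nr3c2, the mineralocorticoid receptor (3.12). The segment chr12:57554844-58877099 held Clec14a and Sstr1, with means of 1.38 and -2.23. Of the 205, 120 were above the 8.28 per Mb of the whole span, so gene-poor segments were not rare.

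Some gene families that every cell uses were placed mostly in shared segments. Of 44 genes for proteasome subunits outside chromosome 5, 28 (63.6%) started in shared segments and 7 in neither replicate. Of 84 cytosolic ribosomal protein genes 45 (53.6%) did so, and of 53 complex I genes of the respiratory chain 27 (50.9%). Solute carriers, with 167 of 377 (44.3%), lay nearer to the 39.3% of all protein-coding genes. These families are spread over 16 to 19 chromosomes, and their members are mostly separate loci: the 84 ribosomal protein genes form 76 loci at a spacing of 1000 kb, of which 38 were shared. Mitochondrial ribosomal protein genes were divided. Of 27 with Mrps symbols 15 (55.6%) were shared, and of 47 with Mrpl symbols 16 (34.0%).

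Many, but not all, large tandem families of receptors and of immune genes lay mostly outside. Over all RefSeq genes outside chromosome 5, 34.6% were shared, 14.6% in replicate 1 only, 14.9% in replicate 2 only and 36.0% in neither. Of 1425 olfactory receptor genes, which serve smell in the nasal epithelium, 232 (16.3%) started in shared segments and 955 (67.0%) in neither replicate. They form 62 loci, 10 of them wholly shared, 26 wholly outside and 15 divided between kinds. The largest, 293 genes on chromosome 2, had 245 outside and 12 in shared sequence, and the loci of 127 genes on chromosome 9 and of 91 on chromosome 19 were wholly outside. Vomeronasal receptors, which detect pheromones, were placed alike: 10.3% of 233 type 1 and 4.35% of 115 type 2 genes were shared. So were bitter taste receptors (1 of 40), killer cell lectin-like receptors (1 of 33), prolactin family genes of the placenta (2 of 25) and immunoglobulin segments (44 of 383). All 40 alpha-defensins, antimicrobial peptides encoded at chromosome 8, and all 11 Skint genes were in neither. Of 263 T cell receptor segments 166 were in neither and 78 were shared, and of 43 beta-defensins 27 were in neither and 16 were shared. Other tandem families were placed otherwise. Of 20 interferon alpha and beta genes 17 were in replicate 2 only and 1 was in neither, and of 50 major histocompatibility genes 21 were shared and 4 in neither. Further, the single locus of 16 trace amine receptors was wholly shared, and the Ugt1a locus of 9 glucuronosyltransferases was too.

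Several clusters fell on the border between the replicates. The 42 Rhox homeobox genes of chromosome X all lay in sequence of replicate 2 only. Of the histone genes, the locus of 32 on chromosome 13 lay in replicate 1 only, the neighbouring locus of 23 in replicate 2 only, and the locus of 10 on chromosome 3 in both, and none of the 71 was outside. Of the 58 clustered protocadherins, 34 lay in replicate 1 only and 24 in neither. In the major histocompatibility locus of 46 genes, 21 were shared and 25 in replicate 1 only. Of the 4 Hox clusters, which pattern the body axis, Hoxa, Hoxc and Hoxd (29 genes) were wholly shared and Hoxb (10 genes) was wholly outside.

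**Figure D4:**
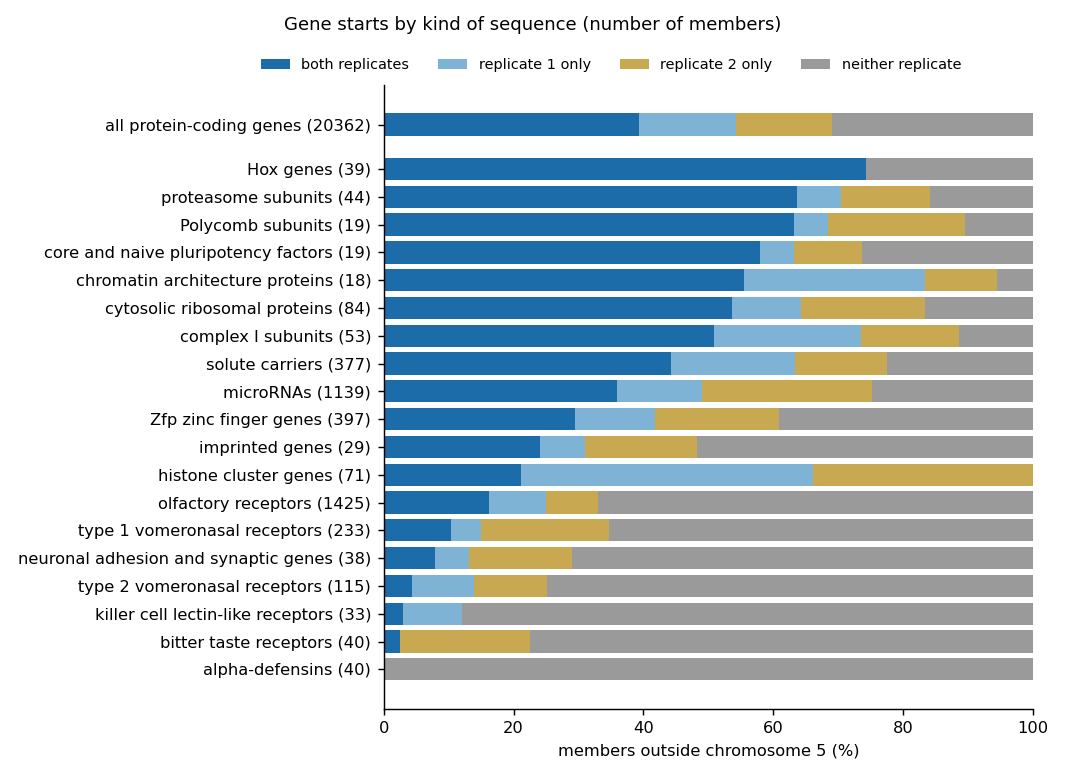
Share of the members of each gene family or list (horizontal axis, percent) whose start lay in regions of both replicates, of 1 replicate or of neither, with the number of members outside chromosome 5 in parentheses. All protein-coding genes, at the top, are at 39.3% shared; Hox genes and proteasome subunits are above 60%, and olfactory, vomeronasal, bitter taste and killer cell lectin-like receptors and alpha-defensins are under 20%.

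MicroRNA genes were placed much like protein-coding genes, apart from a few large clusters. Of the 1170 genes that RefSeq types as microRNA (the plot of families counts 1139 by symbol), 425 (36.3%) started in shared segments and 305 (26.1%) in replicate 2 only. The latter held the 2 largest loci whole, 72 genes within chr2:10466704-10518155 and 60 within chr12:109544541-109747919, in the imprinted domain of Meg3. Both microRNA clusters that are hallmarks of ESCs were outside the shared segments: the 9 genes from Mir290b to Mir295 on chromosome 7 lay in neither replicate, and the 5 from Mir302b to Mir367 on chromosome 3 in replicate 2 only. Their mature sequences are shown because members of both clusters share a seed, bases 2 to 8, given in capitals, from RefSeq on GRCm38.
mmu-miR-294-3p: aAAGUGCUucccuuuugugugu
mmu-miR-302b-3p: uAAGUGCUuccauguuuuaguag
Of the 5 mature microRNAs outside chromosome 5 with this seed, 2 came from replicate 2 only sequence, 3 from neither replicate and 0 from shared segments.

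Most pluripotency genes were in shared segments, but not the best known ones together. Of 19 core and naive pluripotency factors outside chromosome 5, 11 (57.9%) started in shared segments: Sox2, Klf4, Klf2, Klf5, Esrrb, Tfcp2l1, Nr5a2, Sall4, Utf1, Lin28a and Fgf4. Pou5f1, which encodes OCT4, was in replicate 1 only, Tdgf1 and Nr0b1 were in replicate 2 only, and Nanog, Zfp42, Prdm14, Dppa3 and Dppa5a were in neither. The abundant and the missing were thus mixed, since Nanog (mean rlog of 11.31 in the ΔG line) and Zfp42 (11.06) are among the most abundant of the list. Of 18 chromatin architecture genes 10 were shared, among them Ctcf, Rad21, Smc1a and Med12, and Med1 was the only one in neither. Of 19 Polycomb genes 12 were shared, including Suz12, Eed and Rnf2. Of 18 cyclins, cyclin-dependent kinases and their inhibitors, 10 were shared. The licensing and MCM genes, which load the replicative helicase, were fewer: 5 of 19 were shared and 8 in neither. For all protein-coding genes outside chromosome 5 the shares were 39.3% shared and 30.9% in neither. These lists are short, and their shares were not tested against it.

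Long neuronal genes and genes of the 2-cell-like state were nearly absent from shared segments, which held 39.3% of all protein-coding genes, with 30.9% in neither. Of 38 neuronal adhesion and synaptic genes, 3 were shared (Nlgn3, Dlg2 and Opcml) and 27 in neither, among them Cntnap2, Csmd1 and Robo1. Of 17 2-cell-like state genes 16 were in neither, in 6 loci, with the Zscan4 and Tdpoz genes among them, and Duxf3 was the shared one. Of 29 imprinted genes, whose expression depends on the parent of origin, 7 were shared and 15 in neither. The shared ones lay in 3 loci, those of H19, Igf2, Kcnq1ot1, Cdkn1c and Phlda2 on chromosome 7, of Nnat and of Mcts2.

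Promoter sequence went with the same division. Of promoters of protein-coding genes, 53.8% in shared segments were CpG-rich, here meaning over 50% GC and an observed to expected CG ratio over 0.6, against 52.1% and 45.6% in single-replicate sequence and 31.0% in neither, with 45.4% over all. Without olfactory and vomeronasal receptors the share was 55.4% in shared segments and 37.6% in neither. The median exonic GC content of genes that varied in the ΔG table was 52.0%, 50.7%, 49.5% and 46.6% in the 4 kinds of sequence in the order used above. HindIII sites, which define the measurable fragments, were sparser around genes of shared segments, with a median of 142 within 500 kb around the start, against 149, 152 and 160. The share of promoters with the site AAGCTT itself was 6.30% in shared segments and 7.12% in neither. The part of base composition and of site density in the placement of regions was not tested.

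Genes in shared segments were more often expressed in ESCs. Of their protein-coding genes listed in the ΔG table, 90.3% varied, against 87.2% and 83.2% in replicate 1 only and replicate 2 only sequence and 66.9% in neither. A gene varied if its values differed among all samples of the table, including those labelled RA. Reads in the ESC samples are therefore not implied. Without olfactory and vomeronasal receptors the shares were 92.5% and 78.8% for shared segments and neither. A mean rlog of 5 or more in the heterozygous ΔG samples was reached by 49.0% of genes in shared segments, 45.1%, 41.2% and 29.3%. Of the 1000 genes with the highest rlog per exonic kb, 496 (49.6%) started in shared segments and 171 (17.1%) in neither. Of all 15819 genes ranked, 7004 started in shared segments and 3870 in neither.

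The median level was higher inside in each sample. In the heterozygous ΔG samples the median rlog of genes that varied was 5.45 ± 0.01 in shared segments, 5.18 ± 0.01 and 4.95 ± 0.004 in single-replicate sequence and 4.20 ± 0.01 in neither (SD, n = 3). In the heterozygous ΔPG samples it was 5.64 ± 0.01, 5.27 ± 0.03, 5.02 ± 0.02 and 4.09 ± 0.01 (SD, n = 3). The difference between shared segments and neither, 1.25 in the ΔG and 1.54 in the ΔPG line, was 0.71 and 0.85 when the regions of replicate 2 alone were set against the rest. Per exonic kb the ΔG medians were 3.56, 3.29, 3.03 and 2.34. The order of the 4 kinds was the same in all 12 samples of the plot of medians by genotype. By chromosome, the median in shared segments was above that in neither on 19 of 19 chromosomes in both lines, by 0.58 (chromosome 1) to 2.59 (chromosome 6) in the ΔG line. Most of the difference lay in genes of low level: among genes with a mean rlog of at least 3 it was 0.16 in place of 1.25 in the ΔG and 0.41 in place of 1.54 in the ΔPG line. By promoter, CpG-rich genes had medians of 6.54 and 6.24 in shared segments and in neither in the heterozygous ΔG samples, and CpG-poor genes had 2.59 and 1.05.

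The 10 protein-coding genes with the highest rlog per exonic kb in shared segments were led by ribosomal proteins. They were Rps12 (13.61), Rplp1 (13.31), Rpl8 (13.20), Rpl4 (13.19), Rps23 (12.97), Rpl32 (12.95), Rps27 (12.79), Rpl23a (12.76), Ptma (12.69), which encodes the acidic nuclear protein prothymosin alpha, and Pkm (12.64), the pyruvate kinase of glycolysis. Reads of ribosomal protein genes can be shared with their many pseudogenes, so these levels are uncertain.

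**Figure D5:**
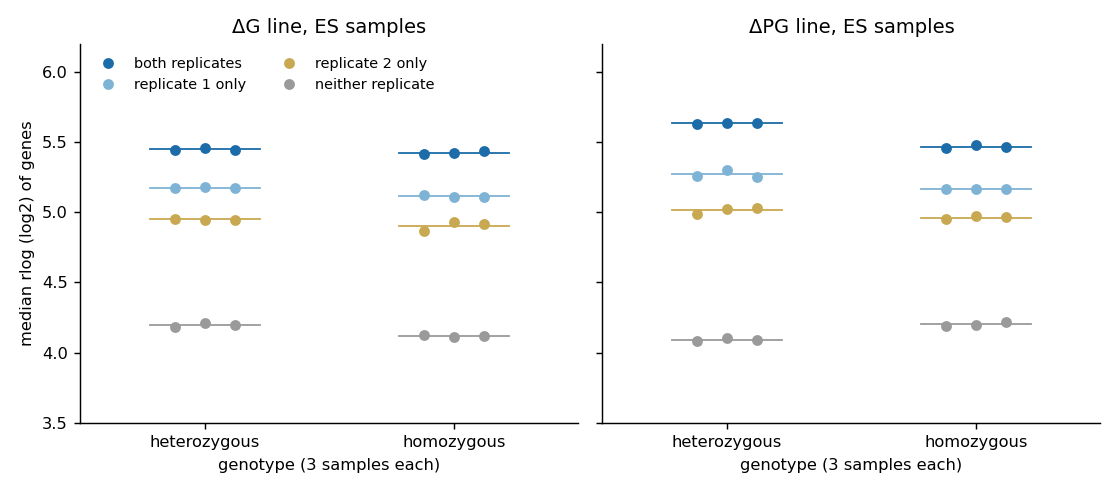
Median rlog (log2) of protein-coding genes that varied, in the 4 kinds of sequence, for each of the 12 ESC samples (points) with the mean of 3 samples (lines), by genotype in the ΔG line (left) and the ΔPG line (right). Shared segments lie highest and sequence of neither replicate lowest in each sample, and in the ΔPG line both move towards each other in the homozygous samples.

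Next, homozygous and heterozygous cells were compared to see whether genes inside the regions changed when the locus was lost. In the ΔG line the median rlog of shared-segment genes minus that of genes in neither was 1.25 ± 0.004 in heterozygous and 1.31 ± 0.01 in homozygous samples (SD, n = 3), a difference of 0.05. In the ΔPG line it was 1.54 ± 0.01 and 1.26 ± 0.02 (SD, n = 3), a difference of -0.28. In neither line did the samples of the genotypes overlap, and the exact two-sided permutation test gave p = 0.1 in both, the smallest that 3 against 3 samples allow. Single-replicate sequence was set against neither in the same way. In the ΔPG line the difference was -0.22 for replicate 1 only and -0.16 for replicate 2 only, without overlap (exact permutation p = 0.1). In the ΔG line it was 0.02 and 0.03, with overlap (exact permutation p = 0.2 and 0.3). In the ΔPG line the change of genes was also ordered by base composition. Among genes with a mean rlog of at least 3, the median homozygous minus heterozygous difference in the ΔPG line fell from the lowest to the highest of 5 equal classes of exonic GC content, from 0.45 to -0.43 in shared segments and from 0.48 to -0.41 in neither. Over genes with a mean rlog of at least 3, the difference of inside minus outside was -0.26 in the ΔPG and 0.03 in the ΔG line. When the trend with exonic GC content was also removed from each sample of these genes, it was -0.04 and 0.03. The part of base composition in the inside minus outside difference was not tested.

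In the ΔG line few genes changed, and their share in shared segments was near that of all genes. A gene was called where its limma p, adjusted by Benjamini-Hochberg, was below 0.1 and its log2 difference exceeded 0.5 in size. Of 22048 genes tested, 0.984% were called, 0.354% higher and 0.630% lower in homozygous cells. Of 8073 genes in shared segments, 76 (0.941%) were called, 38 higher and 38 lower. The counts were 32 of 3000 (1.07%) in replicate 1 only, 40 of 2950 (1.36%) in replicate 2 only and 50 of 4791 (1.04%) in neither. The median difference was -0.01 in each of the 4 kinds.

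The 5 largest falls in shared segments were of A2m, Loxl2, P4ha2, Pygl and Setbp1. A2m, a protease inhibitor of plasma, had an rlog of 7.57, 7.69 and 7.81 in heterozygous and 6.03, 6.34 and 6.26 in homozygous ΔG samples. It fell by 1.48 on the log2 scale (SE 0.10, limma adjusted p = 0.0005). Loxl2, which crosslinks collagen, fell from 8.00, 8.00 and 8.06 to 6.75, 6.92 and 6.98. P4ha2, a collagen prolyl hydroxylase, fell by 1.07, Pygl, a glycogen phosphorylase, by 0.92, and Setbp1 by 0.91 (limma adjusted p = 0.0288). Setbp1 was not called without homozygous replicate 1 (limma adjusted p = 0.119). In each of these genes the 2 genotypes did not overlap, which the choice of the genes required.

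Of the 38 genes that rose in shared segments in the ΔG line, 12 were on chromosome X, a feature picked after the values were seen. Of 370 shared-segment genes tested on this chromosome 12 rose and 0 fell, of 197 in neither 3 rose and 0 fell, and of all 912 tested there 15 rose and 5 fell, and the kinds were not tested against each other. Over all genes tested in this line, 0.354% were called higher and 0.630% lower. The 12 included 7 Xlr genes within 191 kb, at chrX:73074343-73265576. Xlr3c had an rlog of 3.58, 3.897 and 4.37 in heterozygous and 6.03, 6.07 and 5.82 in homozygous samples, and rose by 2.03 (SE 0.19, limma adjusted p = 0.00279). Xlr3a, from 5.15, 5.23 and 4.96 to 6.46, 6.39 and 6.22, rose by 1.24. The Xlr genes are near-identical copies, reads between them may have been split or shared, and without them 31 genes rose. The other largest rises were Gm364 (1.06) and the gene listed as Wnk3-ps, which RefSeq places under Wnk3, a kinase of ion transport (1.23), both also on chromosome X, and Rpl22l1, a paralogue of ribosomal protein L22 on chromosome 3. Rpl22l1 had 8.46, 8.44 and 8.35 against 9.43, 9.40 and 9.48 and rose by 1.02 (SE 0.04, limma adjusted p = 0.000111). The median difference of the 185 shared-segment genes of chromosome X with a mean rlog of at least 3 was -0.02.

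In the ΔPG line many genes changed, with more falls than rises in shared segments and more rises than falls in neither. Of 21979 genes tested, 13.2% were called, 6.87% higher and 6.29% lower in homozygous cells. Of 8068 genes in shared segments 1165 (14.4%) were called, 459 higher (5.69%) and 706 lower (8.75%). In neither replicate 645 of 4729 (13.6%) were called, 480 higher (10.2%) and 165 lower (3.49%). Single-replicate sequence lay between, with 192 higher and 233 lower of 3006 in replicate 1 only and 213 higher and 168 lower of 2927 in replicate 2 only. The share of calls that were higher was thus 39.4% in shared segments and 74.4% in neither. Over genes with a mean rlog of at least 3, 450 were higher and 683 lower in shared segments. After the GC trend was also removed from these genes, 212 were higher and 124 lower in shared segments (63.1% higher). In neither, 121 were then higher and 65 lower (65.1% higher). The part of GC content in this split was not tested.

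Trp53, which encodes the tumour suppressor p53, had the largest fall in shared segments in the ΔPG line. Its rlog was 7.15, 6.95 and 7.05 in heterozygous and 3.83, 4.00 and 4.24 in homozygous samples, and it fell by 3.02 (SE 0.12, limma adjusted p = 1.85e-06). Phlda3, a known p53 target that restrains AKT, went from 6.28, 6.31 and 6.52 to 4.63, 4.74 and 4.31, and fell by 1.81. The other 3 were Cdc42bpg, a kinase that binds CDC42 (-1.35), Mmrn2, an extracellular protein of endothelium (-1.29), and Ak1, an adenylate kinase (-1.27). Of the 5 largest rises, 4 were pseudogenes: Rpl14-ps1 (2.04), Gm14456, a copy of Tpt1 (1.62), Rps13-ps1 (1.54) and Gm15430, a copy of Rpl39 (1.33). Their reads cannot be told apart from those of the parent genes where the sequences match. The other was Snhg3, a host gene of small nucleolar RNAs, which went from 4.41, 4.55 and 4.34 to 6.00, 5.95 and 5.86 and rose by 1.504.

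Few list members changed in the ΔG line, where 0.984% of all genes were called. None of the 18 pluripotency, 17 chromatin architecture, 19 Polycomb, 19 licensing, 18 cyclin or 20 housekeeping genes tested was called. In the ΔPG line, where 13.2% of all genes were called, 1 of 18 pluripotency genes was, Pou5f1 (-0.52), which lay in replicate 1 only. Of 19 Polycomb genes 3 rose and 2 fell: Suz12 (0.82) and Rnf2 (1.05) in shared segments and Bmi1 (0.67) in neither rose, and Cbx2 (-0.54) and Cbx8 (-0.54) in shared segments fell. Of 17 chromatin architecture genes, Stag2 (0.78) and Smc3 (0.58), subunits of cohesin in replicate 1 only sequence, rose, and Lmnb1 (-0.51), the lamin gene in a shared segment, fell. Of 19 licensing and MCM genes, Orc3 (0.79) and Orc6 (0.76) in shared segments and Orc4 (1.21) in neither, subunits of the origin recognition complex, rose, and Mcm2 (-0.58) in a shared segment fell. Of 18 cyclin genes 2 rose and 2 fell, with Cdkn1a, a cell cycle inhibitor induced by p53, at -0.73 in a shared segment. Of 20 housekeeping genes 3 rose, Tbp (0.59) and Tfrc (0.70) in shared segments and B2m (0.86) in replicate 2 only. Of 27 imprinted genes 3 rose and 1 fell, with Mcts2 (0.77) in a shared segment and Sgce (0.60), Grb10 (0.52) and Ndn (-0.57) in neither. Of the 8 2-cell-like state genes that could be tested, none was in a shared segment. In the ΔG line 3 of them fell (Zscan4c, Zscan4d and Tdpoz4), and in the ΔPG line 4 rose (Zscan4b, Zscan4c, Zscan4e and Zscan4f), where the Zscan4 genes are near-identical copies.

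The 2 loci outside chromosome 5 that the study examined by DNA FISH were both outside shared segments, but they were not alike. Mid1 started in a region of replicate 2 only, and Col1a1 in neither replicate. The paper reports that the bait locus interacts with Mid1, from its ligation assays and from FISH, where Col1a1 served for comparison. The FISH data were not analysed here. Mid1, a ubiquitin ligase of microtubules that controls the phosphatase PP2A, lies at chrX:169685199-169990798 on the plus strand. A region of replicate 2 held its start and 93.3% of its length, while the nearest region of replicate 1, chrX:165490206-169514920, ended 170 kb before it. Col1a1, a collagen gene, lies at chr11:94936224-94953042 and was 5638 kb from the nearest region of replicate 1 and 5036 kb from that of replicate 2. The rlog of Mid1 was 8.36, 8.22 and 8.35 in heterozygous and 7.66, 7.64 and 7.87 in homozygous ΔG samples, and it fell by 0.59 (SE 0.08, limma adjusted p = 0.00988). In the ΔPG line it went from 8.49, 8.45 and 8.49 to 7.58, 7.59 and 7.60 and fell by 0.88 (SE 0.04, limma adjusted p = 2.19e-06). Col1a1 was low in all samples, between 2.68 and 3.10 in the ΔG line, where its genotypes overlapped. Of the 15 genes of the MID1, PP2A and CDC25B pathway, 7 were in shared segments (Mid2, Igbp1, Ppp2r2a, Cdc25b, Cdc25c, Wee1 and Ccnb1), 5 in replicate 2 only and 3 in neither. In the ΔG line, where 0.984% of all genes were called, Mid1 was the only one called. In the ΔPG line 13.2% of all genes were called. There Ppp2ca (0.51), the catalytic subunit of PP2A, Ppp2r2a (0.71) and Cdk1 (0.53) were called higher, beside the fall of Mid1. Of the genes that rose, Ppp2r2a alone was in a shared segment.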

How the data were processed

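The authors selected 4C-seq reads with the bait primer, mapped them with BWA (version 0.7.15 per the labels) and scored windows of HindIII sites, each chromosome other than 5 against itself, in each replicate apart. The deposited files hold starts and ends only. The methods name NCBI37/mm9, but with the offset of neighbouring genes between builds, 532 of the 541 regions outside chromosome 5 that had such an offset started within 10 bp of a HindIII site, against 15 of 568 when read as NCBIM37, so the positions are given as GRCm38. RNA-seq reads were aligned by the authors with TopHat2 2.1.0, counted with HTSeq 0.6.0 and transformed with DESeq2 1.14.1, and the deposited tables, 1 for each line, hold rlog, which is on a log2 scale. Each lists 33924 genes, and the depth per sample is unknown.

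Gene positions came from RefSeq GRCm38.p6. The start followed the strand in the RefSeq promoter table or in GENCODE vM1, and the midpoint was used for 656 of 20362 protein-coding genes with neither. Of the table's names, 25008 matched a RefSeq symbol and 3031 a synonym. Exonic length, GC content and HindIII sites came from GENCODE vM1 on NCBIM37. Homozygous and heterozygous samples were compared with limma 3.58.1 (R 4.3.3, variance trend) over every gene that varied (22048 in the ΔG and 21979 in the ΔPG table), which was tested on simulated data. Sequence counts were made with Python 3.11.15, numpy 2.4.6 and pandas 2.3.3. Named genes were Mid1 and Col1a1, list members, the 5 largest rises and falls called in shared segments without overlap of samples, the 10 highest levels per exonic kb in shared segments, and the longest, gene-richest and gene-poorest segments with their most abundant genes. Members, lists and limits were chosen with earlier results of these data known. RIP-seq and capture-C-seq were not analysed here. The RNA-seq samples labelled RA served only to decide which genes varied.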

Additional observations from a re-analysis of the deposited data

Results flagged for a closer look

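The change of inside minus outside expression differed between the lines. The homozygous minus heterozygous difference was 0.05 in the ΔG and -0.28 in the ΔPG line, 0.33 apart on the log2 scale, with an exact permutation p of 0.005 over 400 relabelings of the genotypes within the lines, the smallest these can give. All 3 homozygous samples lay above the heterozygous ones in the ΔG line and below them in the ΔPG line. Over genes with a mean rlog of at least 3 the differences were 0.03 and -0.26, and with the trend with exonic GC content also removed from these genes the lines were 0.08 apart (p = 0.005, exact permutation). The tables of the 2 lines were normalized apart, and line, clone and genotype cannot be told apart.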

How the results depend on the processing

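Placing genes, overlaps and replicates otherwise kept each direction. The shared share of the span (27.4%) was 19.5% when regions had to overlap by 50% of both, 28.04% without chromosome X and 25.1% over the span of genes and regions, a denominator added after seeing the data. The density ratio (2.39) was 2.47 with genes placed by any overlap, 2.52 with the 50% overlap, 1.84 and 1.87 with the regions of replicate 1 or replicate 2 alone, 1.81 over all RefSeq genes and 2.76 without olfactory, vomeronasal, immunoglobulin and T cell receptor genes. The olfactory share (16.3%) was 12.9% with the 50% overlap and 24.98% and 24.3% with replicate 1 or 2 alone. The level difference was 1.25 in the ΔG and 1.54 in the ΔPG line. It was 1.22 and 1.51 by any overlap, 1.23 and 1.53 with the 50% overlap, 0.90 and 1.10 with replicate 1 alone, 0.71 and 0.85 with replicate 2 alone, 1.23 and 1.52 without chromosome X, 0.16 and 0.41 at a mean rlog of at least 3, 1.138 and 1.45 without olfactory and vomeronasal receptors, and 1.22 and 1.43 per exonic kb, also added later. The causes were not tested.

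The difference of inside minus outside expression kept its sign in each alternative. Without single RNA-seq samples it ranged from 0.05 to 0.06 in the ΔG and from -0.29 to -0.27 in the ΔPG line (exact permutation p = 0.1). Genes called in shared segments in the ΔG line (76) were 44 at an adjusted p under 0.05 and a fold over 1.5, 447 at an adjusted p under 0.1 alone, and 50 to 77 with 1 sample left out, the lowest without homozygous replicate 1. Those in the ΔPG line (1165) were 745, 3341, 1141 to 1229, 1133 at a mean rlog of at least 3, and 336 with the GC trend also removed from those genes. In the ΔG line quantile normalization left 35 higher and 25 lower genes in shared segments and 15 and 13 in neither, against 38 and 38, and 14 and 36. Same-numbered samples deviated together weakly at most (correlations of 0.00 to 0.01 in the ΔG and of 0.00 to 0.09 in the ΔPG line). For samples with different numbers the correlations were -0.01 to 0.01 and -0.07 to 0.02. With the replicate block, 14 genes were called in the ΔG and 1162 in the ΔPG line, and the differences of 0.05 and -0.28 had a sign-flip p of 0.25 (exact, the smallest 3 pairs allow). Of the 20 named rises and falls, 17 stayed called in 11 of 11 refits. P4ha2, Setbp1 and Xlr3c were not called with the replicate block (limma adjusted p of 0.131, 0.229 and 0.134), and Setbp1 was not called without homozygous replicate 1 either (0.119). The unknown read depth limits each region, and with 2 replicates and 1 bait no interval is given.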
